A study of Mus musculus with 12 samples.

Results

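The data described here are the X-linked allele counts of 2 libraries from mouse embryonic fibroblasts (MEF), named MEF1 and MEF2. Both were taken at day 0, without a reprogramming vector and without Shield1, so they are the starting state of a series of 12 libraries. The other 10 come from cells carrying the Sendai virus vector SeVdp(fKOSMaB), part of which received Shield1 at 30 nM, a small molecule that protects destabilising-domain fusion proteins from degradation. They enter only where they show how the same sites were read after reprogramming. Poly(A) RNA was sequenced, and the tables list positions of the X chromosome at which reads carried a base other than the mouse reference. Members were single-base variants covered by at least 20 reads in MEF1 and in MEF2 and matched by position. This rule gave 1289 sites, of 6478 different sites in the whole series, and 1256 of them carried a gene name. They fell under 181 gene names, of 433 in all. Where 2 overlapping genes could not be told apart at a site, the joined name was kept. The sources used here state neither the strain and sex of the embryos nor whether the libraries were grown as separate cultures. The labels name MEF1 and MEF2 as replicates of a kind, and a test on their reads compares these libraries only.

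In female mammals 1 X chromosome of each cell is silenced early in development, coated by the noncoding RNA Xist, and the choice is passed on to daughter cells. Most X-linked genes are then transcribed from 1 chromosome, while a small group, the escape genes, is transcribed from both. Where the parental chromosomes differ by single bases, a read that covers such a base shows which copy it came from. The measure is the variant share, the percentage of covering reads that carry the listed variant. All other reads are called other reads here. They mostly carry the reference base but can also carry a deletion or another base. A position at which all reads match the reference is not listed, so genes read from the reference copy alone are not seen. A position at which both chromosomes carry the same variant is listed, with almost every read carrying it. Such a position does not show which copy was read. The term variant allele is used here for the listed base in either case.

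The genes with reads from both alleles are shown first by their sequence. Each line gives 29 bases of the reference (GENCODE M21 transcripts, build mm10, transcript strand, 5′ to 3′) around the best-covered site of the gene that lies within 1 exon and more than 20 bases from a listed insertion or deletion. The variable base is in capitals at position 15, counted from 1 at the 5′ end. Bgn, a gene read almost wholly from the variant allele, is given for comparison and has 3 variable bases.
Ddx3x: ggccatggcggcagTcgaggatttggtgg
Kdm5c: aactcagccaagccAagtccactggcact
Utp14a: ggtgctgacgaggaAgaagccctcgttcc
Pbdc1: agaggaaggagctgGcaataaagaagaag
Eif2s3x: cacagactcaaacaAggccctgatggcag
Tmem29: caggacatacaggaAcatcatgctataga
Bgn: ggctcagcaggccaTcagagCcGccagaa

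At the Ddx3x window (chrX:13291272-13291300), T15C was carried by 100 of 142 reads in MEF1 (70.4%) and 88 of 124 reads in MEF2 (71.0%). At the Kdm5c window (chrX:152271075-152271103), A15G was carried by 49 of 65 reads in MEF1 and 39 of 61 reads in MEF2. At the Pbdc1 window (chrX:105083107-105083135), G15A was carried by 61 of 91 reads in MEF1 and 58 of 111 reads in MEF2. All 3 are in coding sequence, and each was read with and without the variant in both libraries. A15G in Utp14a (chrX:48274888-48274916, coding) had 26 of 35 reads in MEF1 and 25 of 37 reads in MEF2. A15C in Tmem29 (chrX:150420343-150420371, minus strand, coding) had 27 of 36 reads in MEF1 and 37 of 53 reads in MEF2. A15C in Eif2s3x (chrX:94190069-94190097, minus strand) lies in an untranslated region and had 69 of 117 reads in MEF1 and 61 of 114 reads in MEF2. At T15C in Bgn (chrX:73495744-73495772, untranslated) the variant took 3404 of 3512 reads in MEF1 and 4195 of 4231 reads in MEF2. C21T and G23C in the same Bgn window stood at 94.9% and 96.0% in MEF1 and at 98.6% and 98.8% in MEF2.

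Total coverage over the shared sites was 144329 reads in MEF1 and 189423 reads in MEF2, with a median of 42 and 56 reads per site. At this depth a single site has a wide interval, so genes were read from the sum of their sites. Of the shared sites 632 lay in coding sequence and 599 in untranslated regions. Genes known from fibroblasts took most of the reads. The list of matrix and cytoskeleton genes had 17 of 31 members measured, with 77555 reads in MEF1 and 98094 reads in MEF2. No gene of the 17 on the immune and blood list was measured at shared sites, and 2 of 9 epithelial, placental and endothelial genes were (Tspan7 and Vegfd). The tables hold the X chromosome alone, so the fibroblast label could not be checked against autosomal markers. The tables also had different lower limits. The lowest variant count was 5 in MEF1 and 2 in MEF2, and the lowest share was 10.2% in MEF1 and 5% in MEF2. The reprogrammed libraries split the same way. Tables named LowK and MidK1 had a lowest count of 5, as in MEF1, and those named MidK2 a lowest count of 2, as in MEF2. A difference between MEF1 and MEF2 therefore cannot be told apart from a difference between these sets of tables.

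Most sites were read almost wholly from the variant allele. Per site, the variant share had a median of 96.3% in MEF1 and of 99.3% in MEF2. Every read carried the variant at 271 sites in MEF1 (21%) and at 576 sites in MEF2 (44.7%). Shares of 10 to 90%, called intermediate here, were found at 181 sites in MEF1 (14%) and at 101 sites in MEF2 (7.84%). They were shared at 96 sites. Of the 85 sites intermediate in MEF1 alone, 82 stood above 90% in MEF2, and their median in MEF1 was 87.8%, just under the limit. In MEF2 alone there were 5. Site by site, the share was lower in MEF1 at 896 sites (69.5%), higher at 205 and equal at 188. Of the 27 sites under 50% in both libraries, 19 were higher in MEF1. MEF1 lists no share below 10.2%, so low sites enter only where MEF1 is above that limit, and neighbouring sites among them can lie on the same reads; no direction is read from this count.

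A gene was taken as read from both alleles where its summed share was 10 to 90% and the median over its sites of the smaller of the variant and other shares was at least 10%. By this rule 10 names were read from both alleles in each library, 9 in MEF1 alone and 0 in MEF2 alone. A further 8 were intermediate in sum, 4 in both libraries and 4 in MEF1 alone, but did not meet the rule on the median site, and 154 names (85.1%) were read from the variant allele in both. Genes read from both alleles thus made up 19 of 181 names in MEF1 (10.5%) and 10 of 181 in MEF2 (5.52%). Of the 154 names, 63 had a site that was intermediate in a reprogrammed library and 91 had none. Whether the chromosomes differ at the sites of these 91 names was not tested. The 181 names can therefore include genes whose copies cannot be told apart, and reading from a single copy is not shown for them. Wilson 95% intervals of read shares, given below, cover counting error only, since no source names molecular identifiers and neighbouring sites can lie on 1 read.

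**Figure D1:**
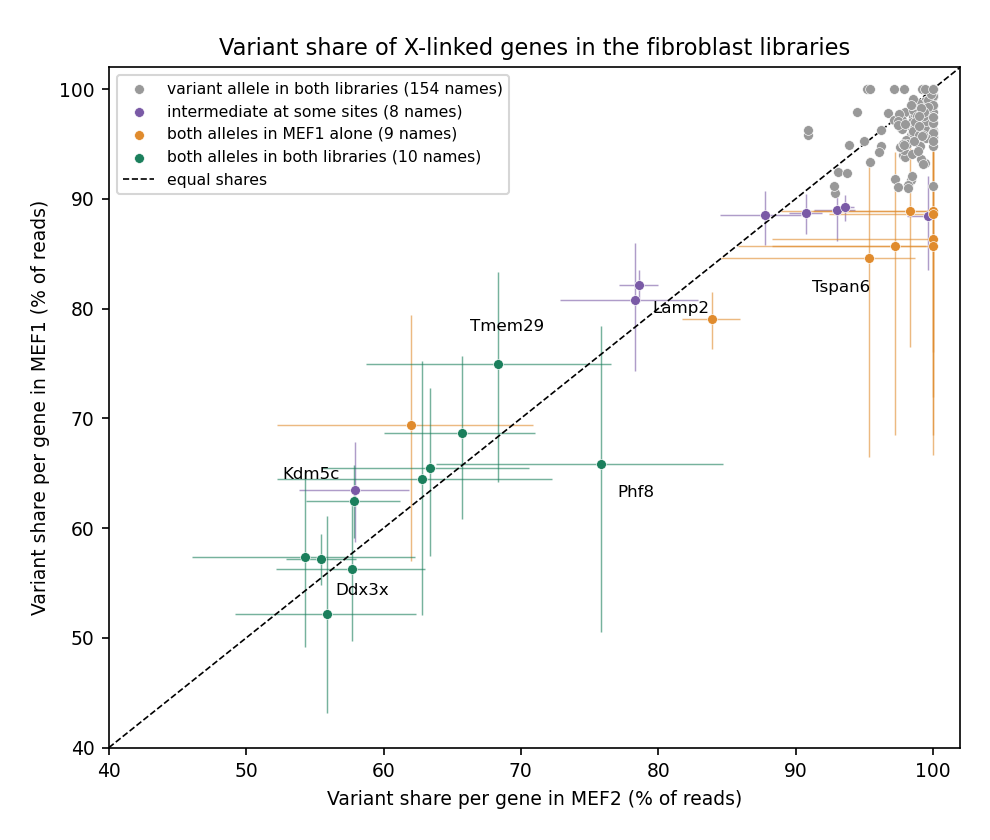
Variant share of each of the 181 gene names in MEF1 (vertical axis) against MEF2 (horizontal axis), in percent of reads over the shared sites, coloured by class, with Wilson 95% intervals on all but the 154 names read from the variant allele. The 10 names read from both alleles in each library lie between 52.2 and 75% in MEF1 and between 54.3 and 75.8% in MEF2, near the line of equal shares, while most of the others sit in the upper right corner, below that line.

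The 10 names had summed shares of 52.2 to 75% in MEF1 and of 54.3 to 75.8% in MEF2, so at the shared sites the variant allele took more than 50% of reads in each of them in both libraries. This did not hold over all sites that passed in MEF2, shared or not, whose table also lists lower shares. There Kdm5c had 49.6% of 998 reads over 27 sites, Tmem29 42.0% of 174 reads over 4, Eif2s3x 39.6% of 285 reads over 6 and Cxx1b 39.1% of 409 reads over 7. Over their own sites in MEF1 the shares were 62.3% for Kdm5c, 75% for Tmem29, 54.8% for Eif2s3x and 52.2% for Cxx1b. Of these 4, Cxx1b missed the both-allele rule over its own sites in MEF2. The lower MEF2 sums of the 4 come from sites that were not shared, whose shares can reach down to the MEF2 limit of 5%. Such sums mix sites of unlike share, so no balance of the alleles is read from them. Ddx3x, an RNA helicase of translation (chrX:13280970-13294052), had 16 sites. Its share was 57.2% of 1730 reads in MEF1 (54.8 to 59.5) and 55.5% of 1466 reads in MEF2 (52.9 to 58.0). All 16 sites were intermediate in both libraries, 8 higher in MEF1 and 8 lower. The direction changed in blocks along the transcript. From 13289857 (66.2% in MEF1 and 53.6% in MEF2) to 13289968, 5 neighbouring sites were all higher in MEF1, and from 13290547 to 13292028, 6 were all lower, among them 13291199 with 59.3% in MEF1 and 73.8% in MEF2. Kdm5c, a histone demethylase that removes methyl groups from lysine 4 of histone H3 (chrX:152233020-152274535), had 20 sites. Its share was 62.5% of 824 reads in MEF1 (59.1 to 65.7) and 57.8% of 787 reads in MEF2 (54.3 to 61.2). Its sites ran from 45.5 to 76.7% in MEF1 and from 38.1 to 75% in MEF2, and 15 of 20 were higher in MEF1.

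The other members with several clean sites gave the same picture. Utp14a, a component of the complex that processes ribosomal RNA (chrX:48256862-48282453), stood at 68.7% of 147 reads in MEF1 and 65.7% of 283 reads in MEF2 over 6 sites. A block of 5 coding sites where Utp14a overlaps 9530027J09Rik stood at 65.5% of 145 reads in MEF1 and 63.4% of 153 reads in MEF2. Eif2s3x, the gamma subunit of initiation factor 2 (chrX:94188707-94212862), had 57.3% of 143 reads in MEF1 and 54.3% of 140 reads in MEF2 over the shared sites. Its 2 shared sites were at 59.0 and 50% in MEF1 and at 53.5 and 57.7% in MEF2. Pbdc1 (chrX:105079756-105117090) had 56.3% of 222 reads in MEF1 and 57.7% of 312 reads in MEF2, but its 5 sites were spread more widely in MEF1. Their shares had a standard deviation over sites of 18.2 points in MEF1 and 8.08 points in MEF2. Along the gene they were 46.7, 36.1, 40.5, 67.0 and 78.6% in MEF1 and 47.5, 60.9, 62.0, 52.3 and 67.7% in MEF2. Tmem29 (chrX:150397773-150459154) had the highest share of the 10 in MEF1, 75% of 76 reads, and 68.3% of 101 reads in MEF2 over its 2 shared sites.

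The remaining 3 names rest on fewer usable sites. Cxx1a and Cxx1b belong to a group of near-identical genes derived from a retrotransposon, so their reads can be shared among copies and their values are uncertain. Cxx1b stood at 52.2% of 115 reads in MEF1 and 55.9% of 213 reads in MEF2, where 1 of its 3 sites was above 90% in both. Cxx1a stood at 64.5% of 62 reads in MEF1 and 62.8% of 86 reads in MEF2. It combined a site at 91.3% in MEF1 and 100% in MEF2 with 1 at 48.7% in MEF1 and 40.7% in MEF2. Phf8, a histone demethylase of the same class of enzymes as Kdm5c (chrX:151520672-151633859), stood at 65.9% of 41 reads in MEF1 and 75.8% of 62 reads in MEF2. Of its 2 sites 1 was at 90% in MEF1 and 100% in MEF2, and the intermediate one, at 42.9% in MEF1 and 51.6% in MEF2, coincides with a listed insertion or deletion.

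**Figure D2:**
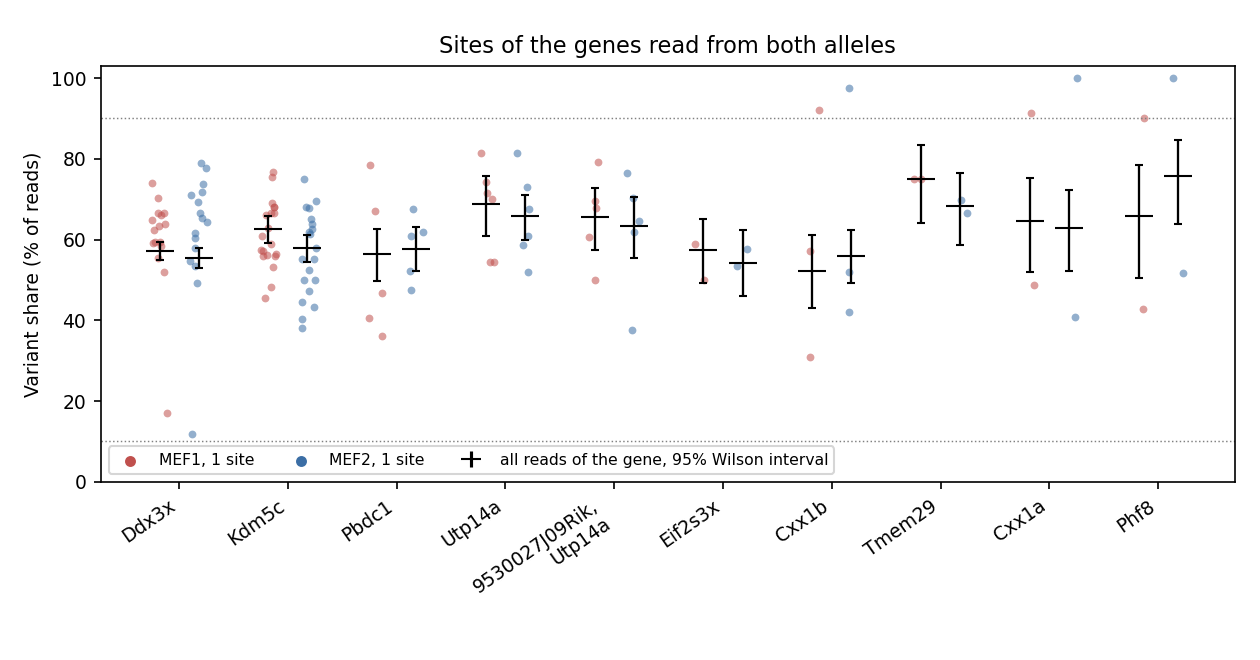
Variant share in percent of reads at each shared site of the 10 names read from both alleles, with MEF1 left of MEF2 and the names ordered by coverage in MEF1. Black bars are the share over all reads of the gene with its Wilson 95% interval and dotted lines mark 10 and 90%; the sites of Ddx3x and Kdm5c lie in 1 band, apart from 1 low Ddx3x site, while Cxx1a, Cxx1b and Phf8 each combine a site near 50% or below with 1 at or above 90%.

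Of the 63 sites of these names 60 were intermediate in both libraries, and 36 of 63 were higher in MEF1. The 57 intermediate sites lying more than 20 bases from a listed insertion, deletion or multi-base variant ran from 30.9 to 81.5% in MEF1 and from 37.5 to 81.4% in MEF2, with medians of 62.3% in MEF1 and 61.5% in MEF2. The libraries differed at the 10 names by -9.95 to 6.68 points, MEF1 minus MEF2. Each name was tested by Fisher's exact test (two-sided, p adjusted over all 181 names by the Benjamini-Hochberg method). None of the 10 was called, against 53 of all 181 names (29.3%) with an adjusted p under 0.05. The lowest adjusted p of the 10 by this exact test was 0.161, for Kdm5c, and none had an unadjusted p under 0.05 (lowest 0.0596). In the names with few reads, such as Phf8 and Cxx1a, differences of several points were not detectable at this depth. At equal depth, counting error is also wider at intermediate shares than in names read almost wholly from the variant allele. Even Ddx3x, the best covered of the 10, had intervals of 54.8 to 59.5% in MEF1 and 52.9 to 58.0% in MEF2. Each is wider than the median difference over all names, -1.67 points. The lack of calls therefore cannot show whether the 10 names share that difference.

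Most of these names also gave reads from both alleles in the reprogrammed libraries. By the same gene rule, at the sites each library measured, Ddx3x, Kdm5c, Eif2s3x, Pbdc1, Utp14a and its joined block were read from both alleles in 10 of 10 reprogrammed libraries. Phf8 and Tmem29 were so in 8 of 10, and Cxx1b in 6 of the 6 that measured it. Cxx1a had no site with 20 reads in any of them. The median share over those libraries was 46.7% for Ddx3x (40.8 to 54.3), 61.5% for Kdm5c (55.7 to 72.0) and 52.5% for Eif2s3x (41.5 to 57.8). Tmem29 ran higher, with a median of 83.4% (69.3 to 91.3). These libraries differ from MEF in the sites they list, so the values are given side by side without a test. The share of all names read from both alleles in them was not computed. Intermediate sites were common there, with 240 of 2258 sites in the library LowK_D35 and 1143 of 2398 sites in MidK1_D56. The counts of libraries therefore do not set these names apart from other genes.

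The 9 names read from both alleles in MEF1 alone were a mixed group. Plp2 (a membrane proteolipid), Mcts1 (a translation factor), Slc35a2 (a Golgi nucleotide sugar transporter), Tceal3 and the joined name Cxx1c and Gm14597 had 1 site each, with 22 to 28 reads in MEF1. Their shares were 84.6 to 88.9% in MEF1 and 95.3 to 100% in MEF2. Cd99l2, a cell surface glycoprotein, and Gpkow, a splicing factor, had 2 sites each and stood at 88.9 and 88.6% in MEF1 and at 98.4 and 100% in MEF2. The upper interval bound in MEF1 was above 90% for all 7 of these names. By Fisher's exact test none of the 7 was called (lowest adjusted p = 0.0732, Gpkow). In the reprogrammed libraries their paths parted: Plp2 and Tceal3 were read from both alleles in 10 of 10 libraries, Slc35a2 in 8 of 8, and Cd99l2 in 0 of 8.

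The other 2 of the 9, Nono and Dkc1, were intermediate in sum in both libraries. Dkc1, the pseudouridine synthase dyskerin, stood at 69.4% of 62 reads in MEF1 and 62.0% of 100 reads in MEF2. A single site, at a listed insertion or deletion, had 28.6% in MEF1 and 11.6% in MEF2, while its other 2 sites had 90 and 90.5% in MEF1 and 100% in MEF2. Nono, an RNA-binding protein of paraspeckles, stood at 79.0% of 916 reads in MEF1 and 83.9% of 1158 reads in MEF2 and was called lower in MEF1 by Fisher's exact test (adjusted p = 0.0204, Benjamini-Hochberg). That call was lost with a coverage minimum of 50 reads (adjusted p = 0.417 by Fisher's exact test). Outside its 5 intermediate sites, Nono had 90.8% in MEF1 and 97.9% in MEF2 over 12 sites.

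Nono leads to a wider pattern, in which intermediate shares sat at a few sites, often neighbours, of a gene that was otherwise mostly read from the variant allele. There were 33 such sites, intermediate in both libraries, in 15 genes outside the 10 names above. Of them 21, in 7 genes, had another such site within 20 bases, and 6 genes had a single one. Of these, 29 (87.9%) had another listed variant within 10 bases, against 13 of 63 sites (20.6%) in the genes read from both alleles and 21.3% of the other sites. An insertion, deletion or multi-base variant lay within 20 bases of 23 of them (69.7%), against 4.76% and 5.89%. At 12 of them (36.4%) a further allele was listed at the same position, against 1.59% and 0.736%. The windows of 4 genes are shown next, 5′ to 3′ on the transcript strand, with every shared variable site in capitals. They are repeats of short units or runs of 1 base.
Lamp2: ttcaacAccCactCcaacTccAactccaa
Atrx: gaaggtgatgaGgaGgaCgaggaggacga
Las1l: gatgatgtagaagaAgaGgaagaagtaga
Atp6ap1: ttagctgttatGttttttGggggggaggg

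Lamp2, a protein of the lysosomal membrane (chrX:38401357-38456454), is the clearest case. Its 5 intermediate sites lie within 15 bases of coding sequence (window chrX:38431942-38431970, minus strand). In the order A22C, T19A, C14T, C10A and A7T the shares were 57.0, 46.5, 39.0, 25.2 and 25% in MEF1, against 40.8, 32.8, 24.9, 14.2 and 13.2% in MEF2. The share thus fell step by step along the window in both libraries, and MEF1 was above MEF2 at all 5. The nearest listed insertion or deletion was 70 or more bases away. The other 26 Lamp2 sites summed to 96.4% in MEF1 and 98.2% in MEF2, with MEF1 the lower. Over all 31 sites Lamp2 stood at 82.1% of 2692 reads in MEF1 and 78.6% of 3255 reads in MEF2. It was the only name called higher in MEF1 (1 of 181 names, 0.552%; Fisher's exact test, adjusted p = 0.00369 by Benjamini-Hochberg). That call came from the 5 neighbouring sites, which can lie on the same reads. At the single best-covered site, 1 of the 5, Fisher's exact test with the same adjustment gave an adjusted p of 0.0608.

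In the coding sequence of Nono, 4 neighbouring sites intermediate in both libraries lie around 1 of high share. Along the transcript the first had 11.3% in MEF1 and 18.5% in MEF2, and the next had 78.6% in MEF1 and 76.4% in MEF2. The other 2 stood at 32.6 and 35.3% in MEF1 and at 33.3 and 51.3% in MEF2, with the site of high share between them at 89.1% in MEF1 and 98.6% in MEF2. Sites 12 bases apart thus differed as widely as 11.3 and 89.1% in MEF1. Hs6st2, a heparan sulfate sulfotransferase, had 3 such sites within 8 bases at 38.4 to 48.8% in MEF1 and 31.0 to 38.5% in MEF2. Its other 26 sites summed to 97% in MEF1 and 99.3% in MEF2.

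**Figure D3:**
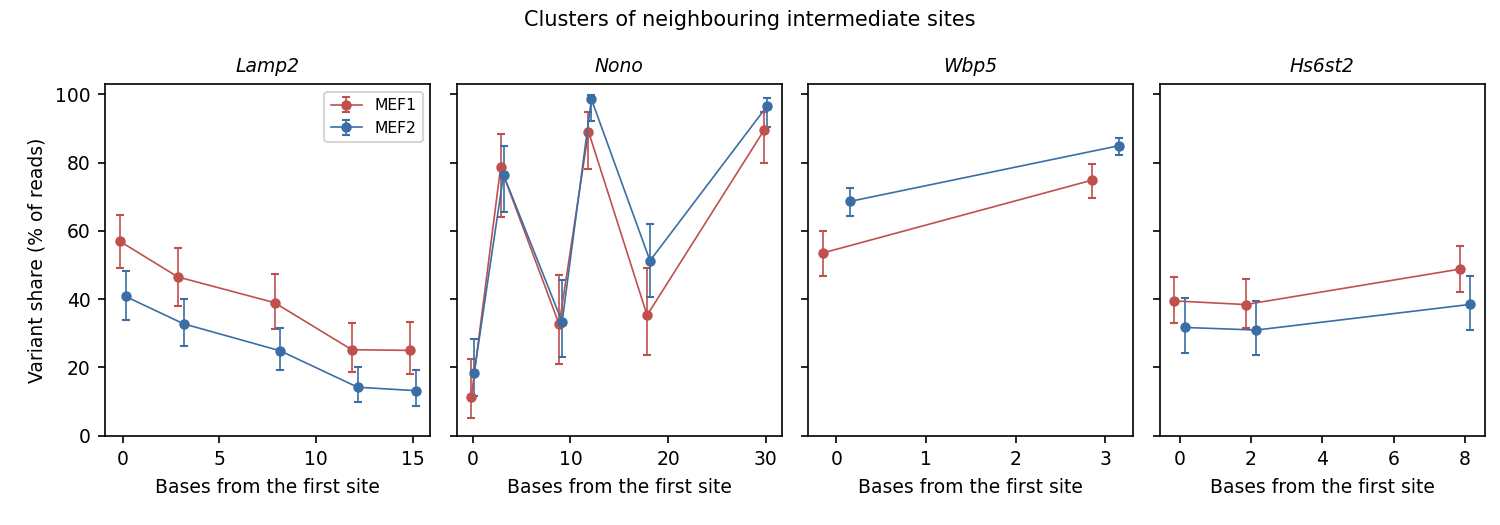
Variant share in percent of reads at neighbouring sites of Lamp2, Nono, Wbp5 and Hs6st2 against the distance in bases from the first intermediate site, for MEF1 and MEF2, with Wilson 95% intervals; points are shifted slightly sideways and lines only join the sites of a library. In Nono the share goes from 11.3 to 89.1% in MEF1 over 12 bases; the order of the sites by share is the same in both libraries, except for the 2 highest Nono sites.

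Reads counted as other were in some places reads of a further listed allele. At Wbp5 (Tceal9 in the annotation), 1 untranslated site had 74.8% of 294 reads in MEF1 and 84.9% of 736 reads in MEF2. With all listed alleles of the position counted, non-reference reads came to 99.3% in MEF1 and 99.9% in MEF2. At Atp6ap1, an accessory subunit of the vacuolar proton pump, G12T (window chrX:74304459-74304487, untranslated) had 14.9% in MEF1 and 14.6% in MEF2. Counting the other listed alleles gave 100% in MEF1 and 98.9% in MEF2. In Las1l, which acts in ribosomal RNA processing, A15G (window chrX:95940466-95940494, minus strand, coding) had 26.8% in MEF1 and 14.7% in MEF2, and all listed alleles together had 83.9% in MEF1 and 89.3% in MEF2. In Atrx, a chromatin remodeller, C18T (window chrX:105851218-105851246, minus strand, coding) had 31.3% in MEF1 and 35.7% in MEF2, and all listed alleles 90.6% in MEF1 and 96.4% in MEF2. The 5 Lamp2 sites had no further allele listed.

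Of the 8 names that were intermediate in sum without meeting the rule, Atrx, Hcfc1, Lamp2 and Las1l were so in both libraries. Atp6ap1, Ogt, Wbp5 and Tspan6 were so in MEF1 alone, with 88.7, 89.0, 89.2 and 88.5% in MEF1, against 90.8, 93.0, 93.6 and 99.7% in MEF2. All of them but Tspan6 hold sites of the kind just described, and away from those sites the shares were high for 6. Atp6ap1 had 94.6% in MEF1 and 98.7% in MEF2 over its other 14 sites, Ogt, the O-GlcNAc transferase, had 94.4% in MEF1 and 98.6% in MEF2 over 20, and Atrx had 96.6% in MEF1 and 98.2% in MEF2 over 15. Las1l was the exception, at 70.7% in MEF1 and 63.3% in MEF2 over its other 10 sites. There, 2 further sites next to insertions or deletions stood at 20.4 and 13.7% in MEF1 and at 8.86 and 8.6% in MEF2, just under the limit in MEF2, and the other 8 at 87.0% or more in MEF1. The same low-complexity setting occurs in Ddx3x, where A15C and A16C, next to each other in a run of A (actttgtaaaaaaaAAaaaaacaaaacaa, chrX:13292608-13292636, untranslated), had 52.1 and 16.9% in MEF1 and 49.4 and 11.7% in MEF2. Tspan6 differed from the rest and is described below with the shift.

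The 154 names read from the variant allele in both libraries held most of the reads, and here MEF1 was slightly but widely the lower. Bgn, which encodes the matrix proteoglycan biglycan (chrX:73483602-73495933), stood at 96.3% of 31844 reads in MEF1 (96.1 to 96.5) and 98.9% of 39841 reads in MEF2 (98.7 to 99). All of its 15 sites lay between 94.9 and 97.8% in MEF1 and between 98.4 and 99.3% in MEF2. Msn, the membrane and actin linker moesin, stood at 96.9% of 5008 reads in MEF1 and 99% of 8615 reads in MEF2. Tmsb4x, the actin-binding thymosin beta 4, stood at 97.9% of 5681 reads in MEF1 and 99.4% of 6385 reads in MEF2. Flna, the actin crosslinker filamin A, stood at 94.3% of 21067 reads in MEF1 and 96.1% of 25510 reads in MEF2. Its 36 sites include 1 at 12.4% of 718 reads in MEF1 and 5.87% of 852 reads in MEF2. Sh3bgrl stood at 93.3% of 4235 reads in MEF1 and 95.4% of 7752 reads in MEF2, and Hs6st2 at 90.6% of 4861 reads in MEF1 and 92.9% of 4007 reads in MEF2. All 6 were called lower in MEF1 by Fisher's exact test (adjusted p from 4.30e-115 for Bgn to 0.000674 for Hs6st2, by Benjamini-Hochberg), with differences from -1.45 points for Tmsb4x to -2.57 points for Bgn. Hs6st2 lost the call with sites as strata (Cochran-Mantel-Haenszel chi-square test, adjusted p = 0.0697) and, with Sh3bgrl and Msn, at its single best-covered site.

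Over all 181 names the median difference in variant share, MEF1 minus MEF2, was -1.67 points (order-statistic 95% interval -2.30 to -1.37, across names, which are not replicates). MEF1 was lower at 131 names, higher at 32 and equal at 18. Of the names tested, 52 (28.7%) were called lower and 1 higher, and only 10 (5.52%) were called and lower by at least 5 points. Calls followed depth, with a median of 623.5 reads in MEF1 over the names called lower and 99 reads over the names not called. Among 32 variant-allele names with at least 500 reads in each library, 31 were lower in MEF1. The summed test takes reads at different sites as independent, so a read over several sites counts more than once. To that extent its p-values are too small and its calls too many. At the single best-covered site of each name, 7 of 181 names were called by Fisher's exact test, all lower in MEF1. That setting has fewer reads and also no read counted at several sites, and the effects of the 2 were not separated.

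**Figure D4:**
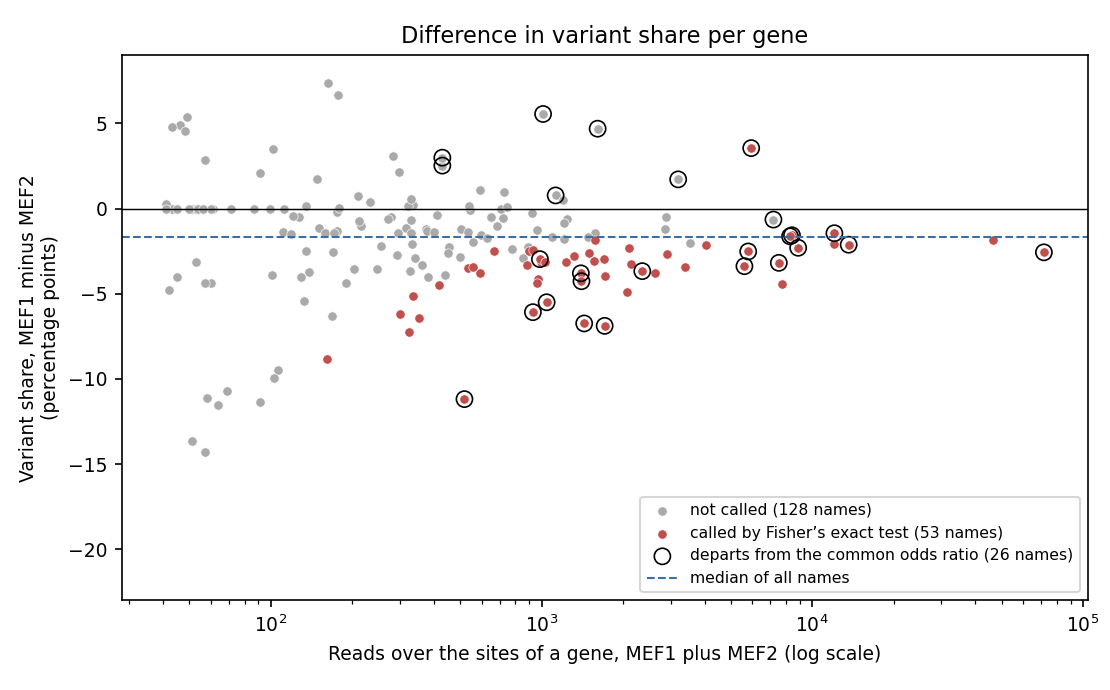
Difference in variant share, MEF1 minus MEF2 in percentage points, for 181 gene names against their reads in both libraries together (log scale), with names called by Fisher's exact test in red and circles around the 26 names that depart from the common odds ratio. Most well-covered names lie just below 0, around the dashed median of -1.67 points, and the spread widens to the left, where reads are few.

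The shift was also looked for by kind of site, over the 1103 sites above 90% in both libraries. Other reads made up 3.36% of 133393 reads in MEF1 (3.26 to 3.46) and 1.02% of 175177 reads in MEF2 (0.971 to 1.07). Coding sites had 3.39% in MEF1 and 0.960% in MEF2, untranslated sites 3.45% in MEF1 and 1.1% in MEF2. Transitions had 3.36% in MEF1 and 1.01% in MEF2, transversions 3.37% in MEF1 and 1.03% in MEF2. A neighbouring variant within 10 bases made little difference (3.58% in MEF1 and 1.1% in MEF2 with 1, 3.30% in MEF1 and 0.995% in MEF2 without). The shift was thus of similar size in each of these kinds. Sites that were intermediate in a reprogrammed library had 3.47% in MEF1 and 1.06% in MEF2 (327 sites). Sites never intermediate in at least 5 reprogrammed libraries had 3.25% in MEF1 and 0.996% in MEF2 (571 sites).

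A few classes stood apart at low levels in both libraries. The 23 sites that kept at least 98% in all of 8 or more reprogrammed libraries had other reads at 0.673% of 3568 reads in MEF1 (0.452 to 0.999) and 0.146% of 4120 reads in MEF2 (0.0668 to 0.317). The 18 sites in exons of noncoding transcripts had 0.421% of 2138 reads in MEF1 (0.222 to 0.798) and 0.0871% of 2296 reads in MEF2 (0.0239 to 0.317). Of these reads 1400 in MEF1 and 1426 in MEF2 came from 4 sites of 1 processed pseudogene, Gm14681, named after its values were seen, whose reads can be shared with a parent gene. Without it the noncoding exons had 0.271% of 738 reads in MEF1 (0.0744 to 0.983) and 0.115% of 870 reads in MEF2 (0.0203 to 0.648), and the 20 remaining sites of at least 98% had 0.940% in MEF1 and 0.217% in MEF2. Along the chromosome, the 26 sites from 60 to 70 Mb had 0.921% in MEF1 and 0.556% in MEF2, or 1.52% in MEF1 and 0.812% in MEF2 without Gm14681, which lies there. The 18 sites from 80 to 90 Mb had 1.13% in MEF1 and 0.249% in MEF2. The 10-Mb bands with more than 30 sites had 2.59 to 4.98% in MEF1 and 0.750 to 1.88% in MEF2, and MEF1 was higher in every one of them.

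**Figure D5:**
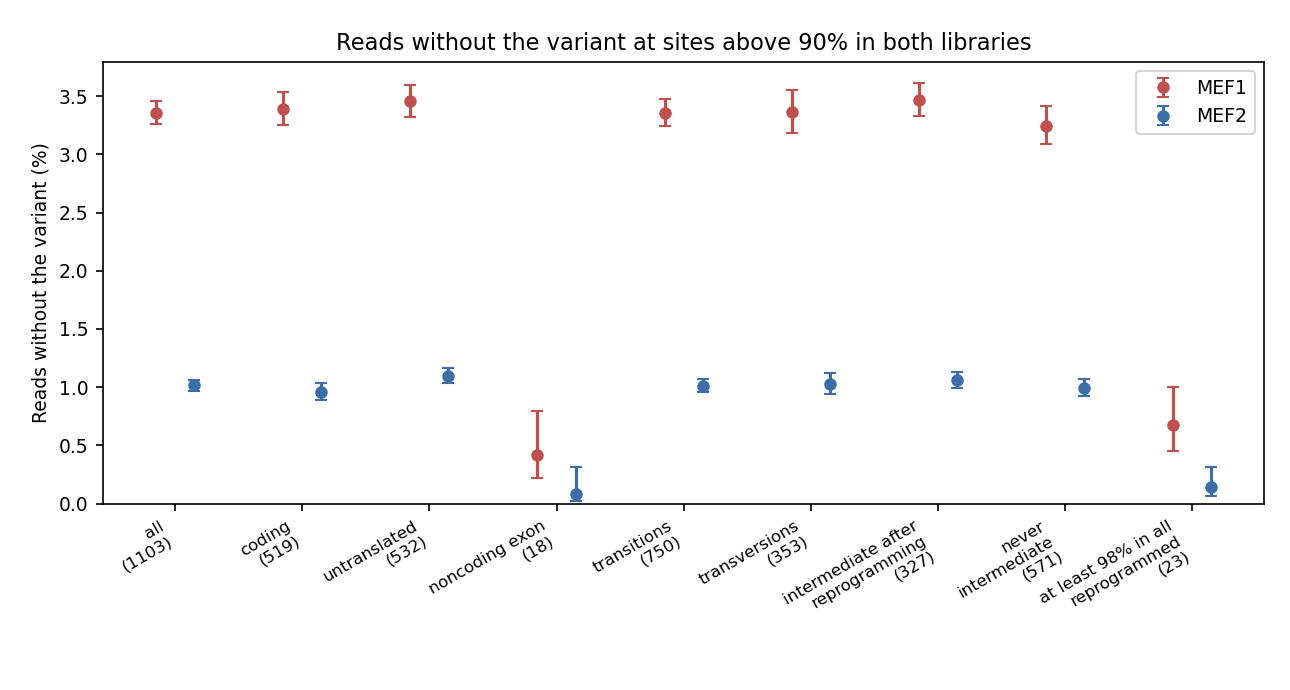
Reads without the variant, in percent of all reads with Wilson 95% intervals, at sites above 90% in both libraries, by kind of site (number of sites in brackets), with MEF1 left of MEF2. MEF1 stands near 3.36% and MEF2 near 1.02% in most kinds, and the noncoding exons and the sites at least 98% variant in all reprogrammed libraries are low in both.

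To ask which genes differed from this common shift, each gene was tested against the odds ratio shared by all genes (Mantel-Haenszel, 0.595, MEF1 over MEF2; exact noncentral hypergeometric test with Benjamini-Hochberg adjustment). Of 181 names 26 departed (14.4%), 17 further down in MEF1 and 9 less down or higher. With the median odds ratio of the genes, 0.419, the count was 31 and the split 8 further down and 23 the other way, so the direction of many departures depends on the shift taken as common. Ddx3x, Kdm5c and Utp14a, higher in MEF1 by 1.71, 4.69 and 2.98 points, were among the 9 (exact test, adjusted p = 1.50e-14, 1.45e-10 and 0.0226). Lamp2, Las1l, Hcfc1 and Atrx, which hold such intermediate sites, were also among the 9. At the intermediate shares of Ddx3x, Kdm5c and Utp14a, an odds ratio of 0.595 is a far larger drop in points than in the variant-allele names. Their departures therefore depend on their share, and by Fisher's exact test none of them was called as different between the libraries. Within the 154 variant-allele names alone, where the common odds ratio was 0.462, 14 departed by the same exact test, 9 further down and 5 less. The 5 were Flna, Hs6st2 and Sh3bgrl and, outside the naming rule and chosen after their values were seen, Col4a5 and Fmr1. Each holds 1 to 3 of the 33 intermediate sites. Without its single such site Flna still had 94.3% in MEF1 and 96.3% in MEF2. That sum keeps the site at 12.4% in MEF1 and 5.87% in MEF2, while the median site had 97.3% in MEF1 and 99.6% in MEF2. Without such sites Hs6st2 had 97% in MEF1 and 99.3% in MEF2. Sh3bgrl then had 95.3% in MEF1 and 99.1% in MEF2, and Col4a5 93.9% in MEF1 and 97.7% in MEF2. Only Fmr1 was then higher in MEF1, with 97.3% in MEF1 and 95.8% in MEF2. Departure of the 5 without these sites was not tested.

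The largest departures downward were in genes of moderate depth. Tspan6, a tetraspanin (chrX:133891068-133898429), stood at 88.5% of 217 reads in MEF1 (83.5 to 92.1) and 99.7% of 302 reads in MEF2 (98.1 to 99.9). Its 7 sites ran from 80 to 95.7% in MEF1 and from 98 to 100% in MEF2, and none lay near a listed insertion or deletion. It was called by Fisher's exact test (adjusted p = 3.30e-08) and departed from the common odds ratio (exact test, adjusted p = 4.64e-05), both by Benjamini-Hochberg. The Fisher call was lost at its single best-covered site (adjusted p = 0.307) and when only sites intermediate after reprogramming were kept (adjusted p = 0.773). Morf4l2, a subunit of a histone acetyltransferase complex, stood at 91.3% of 733 reads in MEF1 and 98.2% of 977 reads in MEF2. Of its 4 sites, 2 had 67.6 and 73.5% in MEF1, against 97.4 and 93.0% in MEF2. The joined name Map3k15 and Pdha1 stood at 91.7% in MEF1 and 98.4% in MEF2, Usp9x, a deubiquitinating enzyme, at 93.2% in MEF1 and 99.3% in MEF2, Syap1 at 93.7% in MEF1 and 99.2% in MEF2, and Pcdh19, a protocadherin, at 94.8% in MEF1 and 99.1% in MEF2. All 5 were called lower in MEF1 by Fisher's exact test (highest adjusted p = 1.19e-05, Pcdh19, Benjamini-Hochberg), against 28.7% of all 181 names. Tspan6 and these 5 were named for large differences among the departing names, on the same read counts. Their Fisher calls are therefore not separate support. None of the 5 calls held at the single best-covered site (lowest adjusted p = 0.0542 by Fisher's exact test).

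By gene list, the median share of the 7 escape-list genes measured of 18 was 62.5% in MEF1 and 57.8% in MEF2. Of these, 5 were read from both alleles in each library, and 1810030O07Rik and Bgn were not. 1810030O07Rik had 1 shared site, with 95.8% of 24 reads in MEF1 and 90.9% of 22 reads in MEF2. Over all sites of each library it went the other way, with 95.7% of 70 reads in MEF1 and 98.8% of 168 reads in MEF2. The median difference of the 7 was 2.98 points, with 2 of them lower in MEF1, against -1.67 points over all names. By Fisher's exact test none of the 5 genes read from both alleles was called. Their depth cannot show whether they share the difference over all names, so no direction is read from this median. Of the 20 measured metabolic and ubiquitous genes, 18 were lower in MEF1, with a median difference of -2.35 points, 8 called lower and 1 called higher (Lamp2). Over all 181 names 131 were lower and 52 (28.7%) called lower. Of 17 measured matrix and cytoskeleton genes, 13 were lower, with a median of -1.86 points, 9 called lower and 1 called higher, again Lamp2, which is on both lists. This list holds the deepest genes, and calls followed depth. The 9 measured histone and chromatin enzymes had a median of -2.37 points with 7 lower and 3 called lower, and the 13 translation and ribosome genes a median of 0.05 points with 6 lower and 2 called lower, to be read against the same 28.7%. The last list holds Ddx3x, Eif2s3x and Utp14a, which are also escape genes. Of the X-inactivation centre, Rlim, a ubiquitin ligase that promotes Xist expression, stood at 96.3% of 490 reads in MEF1 and 99.4% of 539 reads in MEF2 and was called lower (Fisher's exact test, adjusted p = 0.00308). Xist had 1 shared site, with the variant in 23 of 23 reads in MEF1 and 33 of 33 reads in MEF2. Over the 8 sites that passed in MEF2, the shared one included, Xist had the variant in 19.3% of 254 reads. This sum mixes unlike sites. The median over the 8 of the smaller of the variant and other shares was 6.31%, near the MEF2 limit of 5%. Xist overlaps its antisense partner Tsix, and the tables' gene names do not separate the strands.

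Several escape genes were measured in a library on its own sites only. Mid1, a microtubule-associated ubiquitin ligase, had 95.6% of 45 reads over 2 sites in MEF1 and 83.1% of 836 reads over 29 sites in MEF2, at different sites. 5530601H04Rik had 60% of 20 reads at 1 site in MEF1 and 47.6% of 21 reads at another site in MEF2. Firre, a noncoding RNA of nuclear architecture, had the variant in 2 of 27 reads in MEF2 (7.41%), a share below the lowest that MEF1 lists. Of the 692 sites that passed in MEF2 without a match, 155 had under 10%, and 356 were listed in MEF1 below 20 reads. Of the 218 unmatched sites of MEF1, 164 were listed in MEF2 below 20 reads. What was compared here is therefore the part of the X chromosome that was deep enough, and variable enough, in both libraries.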

How the data were processed

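Each library had 1 deposited table of X-chromosome variants, made by the authors in CLC Genomics Workbench (Basic Variant Call, per the series text) against mm10 (per the submitters' processing notes). The sources used here do not give the aligner or the settings. The deposited values are the count of variant reads, the count of covering reads and the percent of variant reads; a base quality score and the number of start positions, other deposited columns, were only described. None is normalised. Variant counts over coverage were summed per gene over single-base sites with at least 20 reads in MEF1 and MEF2, using the tables' gene names. Of 655 positions with several names, 373 were resolved by GENCODE M21 exons. Where 2 bases were listed at a position, the one with more reads was kept. Genes were compared by Fisher's exact test and tested against the Mantel-Haenszel odds ratio by an exact noncentral hypergeometric test, both across all genes with Benjamini-Hochberg adjustment (scipy 1.17.1, Python 3.11.15). Both were tested on simulated data, with reads drawn independently at each site and 1 share per gene and library. Reads shared between sites and sites of unlike share were therefore not covered. The genes named were those read from both alleles, the 6 best-covered variant-allele genes, the 8 largest differences among departing genes, measured escape and X-inactivation centre genes, and genes intermediate at some sites. Reference windows came from GENCODE M21 transcripts. Some items are not reported here. Alternatives changed coverage limits, sites, windows and tests. Members and gene lists were chosen with earlier results of these data known. Precision is set by 42 and 56 reads per site (medians in MEF1 and MEF2). Library differences cover counting error only.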

Additional observations from a re-analysis of the deposited data

Results flagged for a closer look

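Of the 33 shared sites that carry no gene name, which no gene comparison used, 3 had intermediate shares in both libraries, above the limit that 3 variant reads would set. At chrX:52052095 the variant had 26.1% of 23 reads in MEF1 and 26.5% of 34 reads in MEF2. At chrX:52052105, 10 bases on, it had 55% of 20 reads in MEF1 and 72.7% of 44 reads in MEF2. At chrX:80533415 it had 24.0% of 25 reads in MEF1 and 56.1% of 41 reads in MEF2. All 3 lie outside annotated exons, and at each of them an insertion, deletion or further allele was listed at the same position in at least 1 library.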

How the results depend on the processing

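The 10 names read from both alleles in each library became 5 of 80 with a coverage minimum of 50 reads (6 in MEF1, 5 in MEF2). With a minimum of 10 reads MEF1 had 34 of 264. With a window of 5 to 95% MEF1 had 40 and MEF2 16, and with 20 to 80% MEF1 had 10. At sites intermediate in a reprogrammed library MEF2 had 16 of 85. Leaving out 1 library gave 10 (without MEF1) to 19 (without MEF2). The 53 Fisher calls became 34 of 80 at 50 reads, 7 at single sites, 21 of 85 at sites intermediate after reprogramming and 10 at 5 points or more. The 26 departures became 6 at single sites, 14 of 85 at sites intermediate after reprogramming and 14 within variant-allele names, an alternative chosen after seeing the data. The median site share moved to 96.5% in MEF1 and 100% in MEF2 at 10 reads and to 99% in MEF2 at 50. The median gene difference stayed within its interval in every setting run, from -2.05 to -1.44 points. Leaving out sites within 20 bases of an insertion, deletion or multi-base variant, also chosen after seeing the data, gave 9 names read from both alleles, without Phf8, 60 Fisher calls and 27 departures; among named genes Las1l and Atp6ap1 then became called lower in MEF1, with differences of -4.04 and -4.0 points (Fisher's exact test, adjusted p = 0.0136 and 2.63e-09). No called difference of a named gene reversed; over 295 gene and setting pairs, 22 calls were lost and 9 gained. No paired analysis was possible because only the fibroblast group has 2 replicates. Depth limits single sites: at 42 reads a share near 90% has an interval that spans the limit.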
